A study of Macrobrachium rosenbergii with 32 samples.

Results

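Pure insertions at the cut-site of *Mr-cofilin* are alleles in which the read gained bases near the cut and lost none there. Whether each of them arose by repair of the cut was not tested. They were chosen from the window 20 allele tables of all 32 libraries as the alleles with at least 1 inserted base and no deleted base. This rule took 962 of 11882 alleles, of which 951 alleles with 35351 reads lay in the positive controls and 11 alleles with 82 reads in the negative controls. An allele is 1 row of a library's table, that is, 1 aligned read sequence with its read count, so the same insert can be listed in many libraries. Window 20 is the stretch of 20 nucleotides (nt), 10 on each side of the predicted cut-site, in which changes were scored, and window 2 is its narrow counterpart with 1 nt on each side. These limits were read from the positions at which a lone substitution was counted. Losses farther out were not scored, and 20 insertion alleles with 24 reads had a gap in the read outside window 20.

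The libraries came from 16 nucleofection experiments on primary cultures of embryonic cells of the giant freshwater prawn *Macrobrachium rosenbergii*, with wild-type cells and the eggs of a single female in each experiment. In each experiment the positive control was given Cas9 with the *Mr-cofilin* sgRNA, and the negative control (sgRNA-free) was nucleofected without any sgRNA. Cultures were mixtures of embryonic cells, so a share of reads is a share of gene copies over all cells that took up the ribonucleoprotein and those that did not. Aligned reads per library ranged from 17475 to 58396, at which 3 reads, the limit that a count of 0 allows, correspond to between 0.0172% and 0.00514% of reads. PCR reads carry no molecular identifiers, so the intervals below cover counting error only.

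Cas9 cuts both DNA strands a few bases from the PAM, the short motif it needs beside its target, and the cell rejoins the ends. End joining can restore the site, trim it, or add bases that a polymerase copies from an end or takes from elsewhere. In human cells and in yeast, short insertions at Cas9 cuts are known to repeat most often the base on the PAM-distal side of the cut, the fourth from the PAM. Cofilin itself is an actin-binding protein that severs actin filaments.

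In the study's annotation of the *Mr-cofilin* region on scaffold 867, whose positions count from the start of that region and not of the scaffold, the sgRNA lies at 8770 to 8789 on the plus strand and the gene runs on the minus strand. In the region sequence used here the sgRNA matched at 8710 to 8729, which is 60 positions lower, so distances were taken within the annotation alone. By the manual gene model, with 4 exons between 8869 and 13627, 79 nt separate the sgRNA from the last exon, at 8869 to 8931. By the Maker gene model it falls in the 3′ UTR at 5712 to 8862. The sequences below are shown because the results turn on which bases flank the cut. The sgRNA is given in its own orientation with the PAM in capitals, and all others are given in the orientation of the gene, in which the PAM lies to the left of the cut. In the unedited site the capitals mark the bases on each side of the cut, and in the edited alleles they mark the inserted bases.
sgRNA with PAM: catatgactagctggccacaGGG
Unedited site: ctaccgccctgTGgccagctagtc
G, repeat of the base on the right: ctaccgccctgtGggccagctagtc
T, repeat of the base on the left: ctaccgccctgtTggccagctagtc
A, no repeat: ctaccgccctgtAggccagctagtc
GT, repeat of the 2 bases on the left: ctaccgccctgtGTggccagctagtc
GG, repeat of the 2 bases on the right: ctaccgccctgtGGggccagctagtc
GA, no repeat: ctaccgccctgtGAggccagctagtc
GC, no repeat: ctaccgccctgtGCggccagctagtc

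In the positive controls, pure insertions took up 6.65% ± 2.14 (SD, n = 16) of the aligned reads. The lowest share was 3.68% (95% Wilson interval 3.49 to 3.89) in experiment 2, the median 6.22%, and the highest 11.7% (11.3 to 12.1) in experiment 8. The negative controls had 0.0165% ± 0.0540 (SD, n = 16). No positive control overlapped with any negative control, and the difference of 6.64 percentage points gave p = 1e-05 by a two-sided permutation test, the smallest p that 100000 resamples can give. The positive control was the higher library in 16 of 16 experiments. Over all alleles, 5 of the 120 pairs of negative controls were not separated by a chi-square test of their read counts (p from 0.0542 to 0.35). When the 7 libraries in these pairs were joined into 2, leaving 11 negative controls, although 6 of the 11 pairs so joined did differ, the difference was 6.63 percentage points (permutation p = 1e-05, again the smallest possible).

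Of the 82 insertion reads in the negative controls, 70 were in experiment 15. In that library 67 reads carried the G at the cut-site, and A and C at the cut-site and a T 2 nt to its right had 1 read each. The negative controls of experiments 10 and 11 had 5 and 3 reads with the G, those of experiments 2 and 7 had 1 each, and those of experiments 5 and 9 had 1 read with another insert. The 9 others had none. Without experiment 15 the negative controls averaged 0.00306% ± 0.00558 (SD, n = 15). The insertion reads of negative control 15 came with 465 reads that held a deletion, so insertions made up 13.1% (Wilson 10.5 to 16.2) of its indel reads, against 13.3% (12.7 to 13.9) in the positive control of the same experiment. For every 100 reads that had lost a G at the cut-site, the negative control of experiment 15 had 20.9 reads that had gained a G, and its positive control 21.9. Other positive controls were as close, with 13.1% of indel reads in experiment 3 and 13.3% in experiment 16. Their G gains per 100 G losses were 20.3 in experiment 12 and 21.7 in experiment 16. Over all positive controls these measures ranged from 11.5% to 26.1% and from 20.3 to 49.9. The values do not single out the positive control of experiment 15. How edited reads came into this library was not tested.

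**Figure D1:**
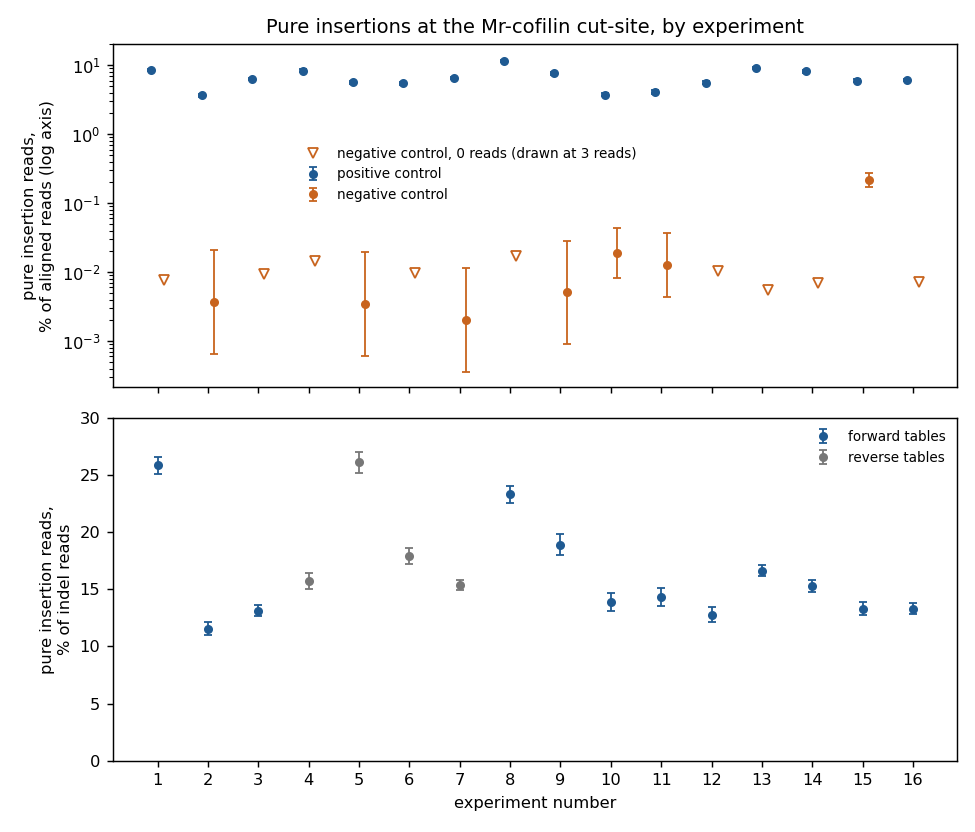
The upper panel gives pure insertion reads as a percentage of aligned reads (log axis) for the positive and negative control of each of the 16 experiments, and the lower panel gives them as a percentage of indel reads in the positive controls. Points are single libraries, bars are 95% Wilson intervals, and open triangles are libraries with 0 insertion reads, drawn at 3 reads. Negative control 15, at 0.218%, stands above the other negative controls, and experiments 1, 5 and 8 stand highest in the lower panel.

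Pure insertions were the smaller part of the reads with an indel. As a percentage of indel reads, that is, pure insertion reads plus reads with a deletion, they made up 16.7% ± 4.60 (SD, n = 16). The lowest value was 11.5% (Wilson 11.0 to 12.2) in experiment 2 and the median 15.3%. Experiments 8, 1 and 5 had 23.3% (22.5 to 24.1), 25.8% (25.1 to 26.6) and 26.1% (25.2 to 27.0). These 3 stood apart from the next highest, experiment 9, at 18.9% (18.0 to 19.8), by more than their counting intervals. The tables of experiments 4 to 7 list the amplicon on the opposite strand to the 12 others, and were turned before counting. Those 4 averaged 18.8% and the 12 others 16.0%, a difference of 2.75 percentage points that an exact two-sided permutation test did not separate from the spread between libraries (p = 0.332).

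Nearly all insertion reads had gained 1 base. In the positive controls, 34591 reads (97.9% of insertion reads) had a 1-nt insertion, 344 (0.973%) a 2-nt insertion and 416 (1.18%) an insertion of 3 nt or more. As shares of aligned reads these were 6.50% ± 2.07, 0.0631% ± 0.0366 and 0.0856% ± 0.101 (SD, n = 16). The negative controls had 82 reads of the first kind and none of the others. Each length class was higher in the positive controls (adjusted permutation p = 1e-05, the smallest possible, over 11 classes). Within the positive controls, 1-nt insertions exceeded 2-nt insertions in 16 of 16 libraries (exact sign-flip test, adjusted p = 7.63e-05 over 10 pairs). Insertions of 2 nt and of 3 nt or more were not separated by the test (difference 0.0225 percentage points in favour of the longer, adjusted p = 0.72 by the exact sign-flip test), and the longer class was larger only with experiment 8 included, since without it the 2-nt class averaged 0.0673% and the longer class 0.0615%. Counting only alleles without substitutions turned the difference to 0.0209 percentage points in favour of 2 nt, and this passed the exact test (adjusted p = 0.0246). The longer class was not called against the negative controls when alleles under 5 reads were left out (adjusted permutation p = 0.227).

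A single product, the gain of a G at the cut-site, accounted for 34248 of the 35351 insertion reads. The site reads T on the left of the cut and G G on its right, so another G beside them is a repeat of the base on the right, which is also the fourth base from the PAM. Which of the 3 is the added base cannot be told from the sequence. This allele made up 6.44% ± 2.07 (SD, n = 16) of aligned reads, with 3.54% in experiment 2 as the lowest, 6.05% as the median and 11.2% in experiment 8 as the highest. Its share of the insertion reads hardly varied between libraries. It was 96.8% ± 0.666 (SD, n = 16), from 95.3% in experiment 12 to 97.7% in experiment 4, while the insertion share itself varied from 3.68% to 11.7%. The product was the only placed insert seen in all 16 positive controls.

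The other bases were added at the cut-site in far fewer reads. T, a repeat of the base on the left, had 68 reads in 15 libraries and a mean of 0.0125% ± 0.0123 (SD, n = 16), highest in experiment 5 with 20 reads (0.0497%). A, which repeats neither neighbour, had 45 reads in 12 libraries (0.00786% ± 0.00587), and C, which also repeats neither, had 21 reads in 9 libraries (0.00383% ± 0.00535). G exceeded each of the others in 16 of 16 libraries (exact sign-flip test, adjusted p = 7.63e-05 for each pair, from the smallest p that 16 libraries allow, 3.05e-05). T exceeded C in 13 of 16 libraries (adjusted p = 0.00387 by the same exact test). T and A differed by 0.00463 percentage points (adjusted p = 0.231) and A and C by 0.00403 (adjusted p = 0.0983), neither of which passed the exact test. At counts of this size most libraries held fewer than 10 reads of each, so only the order of G over the rest and of T over C is given by these data.

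Counted over every place in window 20, the 4 bases were each more frequent in the positive controls (adjusted permutation p = 1e-05 for each, the smallest possible). When alleles under 5 reads were left out, only G kept this call, with adjusted p = 0.227 for A, 0.0687 for C and 0.227 for T. Of the placed 1-nt insertion reads, 34382 (99.4%) had the base at the cut-site, 208 had it to the right and none had it to the left. The most frequent of the 208 were T 1 nt to the right of the cut, with 42 reads in 14 libraries, and C 6 nt to the right, with 59 reads in 12 libraries. The 42 reads with T at the first of these places came in counts of 1 to 8 per library, with the highest in experiment 5.

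None of the 59 reads with the C 6 nt from the cut was free of substitutions within 10 nt of the cut, whereas 33893 of the 34248 reads with the G at the cut-site were.

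**Figure D2:**
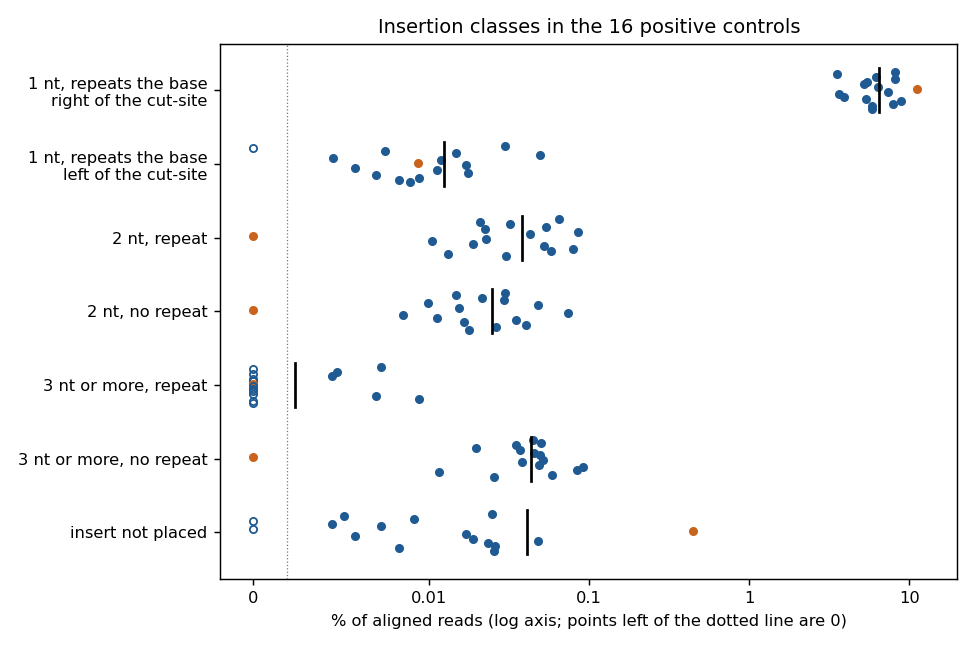
Shares of aligned reads (log axis) of 7 insertion classes in the 16 positive controls, with 1 point per library, orange for experiment 8, and a black line at the mean over the 16. Open points, and orange points left of the dotted line, are libraries with 0 reads. The 1-nt repeat of the base right of the cut-site lies between 3.54% and 11.2%, above every point of the other classes.

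The 2-nt insertions were more mixed. Of the 343 placed reads, 294 (85.7%) were at the cut-site and 49 to its right. GT, a repeat of the 2 bases to the left of the cut, was the most frequent, with 150 reads in 15 libraries, a mean of 0.0263% ± 0.0197 (SD, n = 16), and 28 reads (0.0660%) in experiment 13 as the highest. GG, a repeat of the 2 bases to the right, had 68 reads in 13 libraries and a mean of 0.0118% ± 0.00845. GA and GC, which repeat neither side, had 37 reads in 12 libraries and 25 reads in 8 libraries. AG placed 7 nt to the right of the cut had 20 reads, of which 8 were in experiment 9 and 7 in experiment 6. Repeats of either side summed to 218 reads and inserts without a repeat to 125 reads. Repeats were the more frequent in 13 of 16 libraries, by 0.0132 percentage points on average, and this did not pass the threshold (adjusted p = 0.0705, exact sign-flip test). It passed when alleles with 1 read were left out (adjusted p = 0.0134) and when only alleles without substitutions were counted (adjusted p = 0.0242). Inserts without a repeat were spread over 61 alleles and repeats over 32, so leaving out alleles with 1 read took more from the former. The test asks only whether the shares are equal. Most possible 2-nt sequences repeat neither side, so it does not tell whether repeats were favoured. No negative control had a 2-nt insertion.

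The GT insert shows how the side of a repeat and the first base can part. The unedited site reads G T to the left of the cut, so GT repeats the left side. As placed, GT begins with G, as the 1-nt product does, but the same read can be written as TG 1 nt to either side. Among 2-nt inserts at the cut-site, 280 of 294 reads (95.2%) began with G, in 54 of 63 alleles, and 69 reads ended with G. Among placed inserts of 3 nt or more at the cut-site, 148 of 184 reads (80.4%) and 95 of 121 alleles (78.5%) began with G, while 20 of 121 alleles (16.5%) ended with G. The last base of these longer inserts was T in 51 alleles (42.1%), A in 32, and C in 18. G came first in more reads than all other bases together in 15 of the 15 libraries with 2-nt inserts and in 13 of the 15 with longer placed inserts. These counts are descriptions, and no test was made of them. They depend in part on the placing of each insert at the equivalent place nearest the cut. An insert 1 nt to the right that ends with G is the same read as one at the cut that begins with G. It was counted as the latter. Likewise, an insert 1 nt to the left that begins with T was counted as one at the cut that ends with T.

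Insertions of 3 nt or more were rare, long and mostly seen once. The class held 222 alleles of 3 to 47 nt, with a median length of 10 nt. The length of the paired reads limits how long an insert in this amplicon of 245 nt can be and still be seen. Where that limit lies was not tested, so the range, the median and the longest lengths describe only the inserts that could be counted. Of these, 161 alleles with 243 reads were of 3 to 15 nt, 19 alleles with 59 reads of 16 to 39 nt, and 42 alleles with 114 reads of 40 to 47 nt, the last in 12 libraries. The tables show 40 aligned columns, so an insert that ran past the edge could be counted but not read to its end. This and the presence of 2 separate inserts left 63 alleles with 173 reads of any length unplaced. Repeats of the neighbouring bases were nearly absent among placed inserts of this class, with 9 reads in 5 libraries against 236 reads without a repeat in 15 libraries. The difference of 0.0419 percentage points passed the exact sign-flip test (adjusted p = 0.000122), and inserts with a repeat were not the more frequent in any of the 16 libraries. A repeat of a longer stretch needs more matching bases, so most sequences of 3 nt or more repeat neither neighbour. The outcome of this test of equal shares was therefore nearly fixed in advance, and it cannot tell whether repeats were avoided. For the same reason, the repeat classes of different lengths are not comparable with each other.

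**Figure D3:**
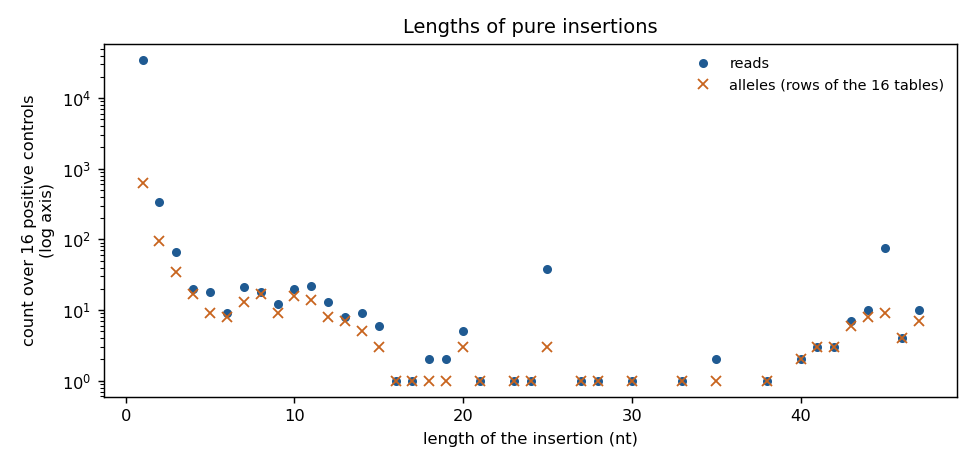
Number of reads (points) and of alleles (crosses) for each insertion length over the 16 positive controls, both on a log axis. Counts fall from 34591 reads at 1 nt to 344 at 2 nt and 67 at 3 nt. Lengths of 16 to 39 nt together hold 19 alleles and lengths of 40 to 47 nt hold 42, and the points at 25 and 45 nt are mostly reads of experiment 8.

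The most frequent placed inserts of 3 nt or more were each found in more than a single experiment and are shown to compare them with the bases beside the cut. GCC had 11 reads in 3 libraries, CCA had 10 reads in 3 libraries, 8 of them in experiment 5, and GAT had 10 reads in 3 libraries.
GCC: ctaccgccctgtGCCggccagctagtc
CCA: taccgccctgtgCCAgccagctagtca
GAT: ctaccgccctgtGATggccagctagtc
Both GCC and CCA have the letters found just to the right of the cut, moved by 1 nt, so neither counts as a repeat under the rule, which asks for the bases directly beside the insert.

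Inserts of at least 10 nt, 112 alleles with 249 reads in 15 libraries, were searched for stretches of the amplicon of 245 nt. A run of 10 or more identical bases on the same strand was found in 14 alleles with 23 reads from 8 libraries, and on the opposite strand in 1 allele with 2 reads. The amplicon holds 0.045% of all possible stretches of 10 bases on both strands together. Of the 14 copies, 12 began within 4 nt to the right of the cut. In 7 of them, with 12 reads from 5 libraries, the copied run as placed began 1 nt to the right of the cut, and so left out the first G. Where such an insert begins with G, the same read can be written with the insert 1 nt to the right. The start of the run and the G left out then cannot be told from the sequence. The form below, found in experiments 7 and 9, had 4 reads and is shown as an example, with the copied bases in capitals and their source in part visible after them.
Copy of 14 nt: cgccctgtGCCAGCTAGTCATAggccagct

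Of the remaining long inserts, 18 alleles with 23 reads from 7 libraries held at least 12 nt of a repeated unit of 2 to 6 bases. The dinucleotide GA, on either strand, was found in 6 alleles of 3 libraries, CA in 3 alleles of 3 libraries, and TA in 2 alleles of experiment 1. The unit TTAGG, known as the telomere repeat of many arthropods, was found in 5 alleles with 6 reads from experiments 1, 3 and 12. The first bases of such inserts are shown for a telomere-like and a dinucleotide case, with the inserted bases in capitals and the flanks as in the unedited site. The 4 reads of the GA case carried 5 substitutions within 10 nt of the cut, so their own flanks differ from those shown.
TTAGG repeat, first bases, experiment 1: cgccctgtGTTAGGTTAGGTTAGGTTAG
GA repeat, experiment 11: gccctgtGAGAGAGAGAGAGAGggccagc
Another 5 alleles with 6 reads matched 12 or 13 nt elsewhere in the region of 20971 nt around the gene, and 74 alleles with 195 reads matched none of these. Of the 195 reads, 105 were of experiment 8. Inserts that ran past the edge of the 40 aligned columns, 56 alleles with 164 reads, could be searched only over the bases shown. No genome sequence was searched, so the source of the 74 is not given here. These groups were formed after the inserts had been read.

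Few inserts recurred between experiments. Without regard to substitutions elsewhere in the read, the placed inserts of the positive controls came to 192 combinations of sequence and place, of which 158 were seen in 1 library, 34 in 2 or more, 14 in 8 or more, and only the G at the cut-site in all 16. The number of insertion alleles per positive control ranged from 37 in experiment 10 to 111 in experiment 13, and 67.4% ± 7.03 (SD, n = 16) of them had a single read.

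Experiment 8 stood apart in several of these measures. Its positive control had the highest insertion share, and its table held 247 alleles of all kinds, against 382 to 868 in the others. It had no 2-nt insertion among 23461 reads, which allows a share of up to 0.0128%, whereas the other 15 libraries had between 0.0174% and 0.133%. Its insertions of 3 nt or more were of 2 lengths, with 37 reads of 25 nt and 68 reads of 45 nt, and these 105 reads were 25.2% of the class over all 16 libraries. All 105 reads were unplaced, carried 2 to 4 substitutions within 10 nt of the cut and matched none of the sequences searched. Pure insertion reads of this library also had the highest share with such a substitution, 4.35%. Outside experiment 8, no allele of 3 nt or more had over 8 reads, and a library had 4 to 48 reads of the class. In experiment 8 the substitution T11C, with positions counted from 1 at the first base to the right of the cut and so just outside window 20, was carried by 2.86% (Wilson 2.29 to 3.57) of the reads with the G insertion and by 0.0171% (0.00468 to 0.0623) of the reads without an indel. Without experiment 8 the insertion share of the positive controls was 6.32% ± 1.73 (SD, n = 15) and the share of the long class 0.0615% ± 0.0291.

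Whether substitutions were more or less frequent beside insertions depended on which reads and bases were counted. Of the pure insertion reads, 2.13% ± 0.778 (SD, n = 16) also carried a substitution within 10 nt of the cut, against 1.99% ± 0.398 of the reads without an indel in the same libraries, a difference of 0.139 percentage points (exact sign-flip test, p = 0.523, higher in 8 of 16 libraries). Without alleles of 1 read the difference turned to -0.623 and passed the test (exact p = 0.0109), and without experiment 8 it was -0.00526 (exact p = 0.97). An allele is 1 exact read sequence, so a substitution beside a rare insert is often an allele of 1 read. Leaving out such alleles can take out more of the substituted insertion reads than of the more numerous reads without an indel. The result of this filter therefore does not tell whether substitutions were rarer beside insertions. Reads with the G at the cut-site alone carried a substitution within these 10 nt in 1.08% ± 0.330 of reads, below the reads without an indel in 16 of 16 libraries (difference -0.918 percentage points, exact p = 3.05e-05, the smallest possible). Reads without an indel in the negative controls carried 1.10% ± 0.194. Over all 40 columns of the alignment, which include T11C, the values were 2.11% ± 0.760 for the G, 3.00% ± 0.796 for reads without an indel and 2.13% ± 0.442 for those of the negative controls. The G reads were then lower in 15 of 16 libraries (difference -0.889, exact p = 0.000641). When only the 15 bases to the left of the cut were counted, reads with the G had 0.740 ± 0.302 substitutions per 100 reads and reads without an indel 0.818 ± 0.115, and this difference did not pass (-0.0779, exact p = 0.277).

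Window 2 counted as modified every insert placed at the cut-site in the positive controls, that is, 517 alleles of 1 nt, 63 of 2 nt and 121 of 3 nt or more. Inserts placed elsewhere were mostly outside its reach. Of the placed 1-nt insertions away from the cut-site, 93 alleles with 167 reads counted as unmodified in window 2 and 24 alleles with 41 reads as modified, and the corresponding counts were 26 and 4 alleles for 2 nt and 31 and 9 alleles for 3 nt or more.

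Whether insertions were more frequent in the positive controls with more deletions could not be settled with 16 libraries. The insertion share and the share of reads with a deletion had a Pearson r of 0.52 (permutation p = 0.0353) and a Spearman rho of 0.55 (p = 0.0282), which did not pass after adjustment over the 18 correlations computed (adjusted p = 0.159 for each). With experiments 5 and 10 left out, which lay farthest from the middle of the deletion shares, r was 0.46 (permutation p = 0.0985), and within the 12 libraries of forward orientation it was 0.50 (p = 0.101). The gain and the loss of a G at the cut-site gave r = 0.57 (permutation p = 0.0196, adjusted 0.159) and rho = 0.59 (p = 0.0182, adjusted 0.159), r = 0.52 (p = 0.0555) without experiments 5 and 13, and r = 0.54 (p = 0.0711) in forward orientation. For every 100 reads that had lost a G there were 30.1 ± 9.52 (SD, n = 16) that had gained a G, from 20.3 in experiment 12 to 49.9 in experiment 8. The part of indel reads that were insertions had no clear relation to the share of indel reads (r = -0.27, permutation p = 0.308, rho = -0.10, p = 0.707). The shares of a library have the same denominator, and a read counted as an insertion cannot be counted as a deletion.

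**Figure D4:**
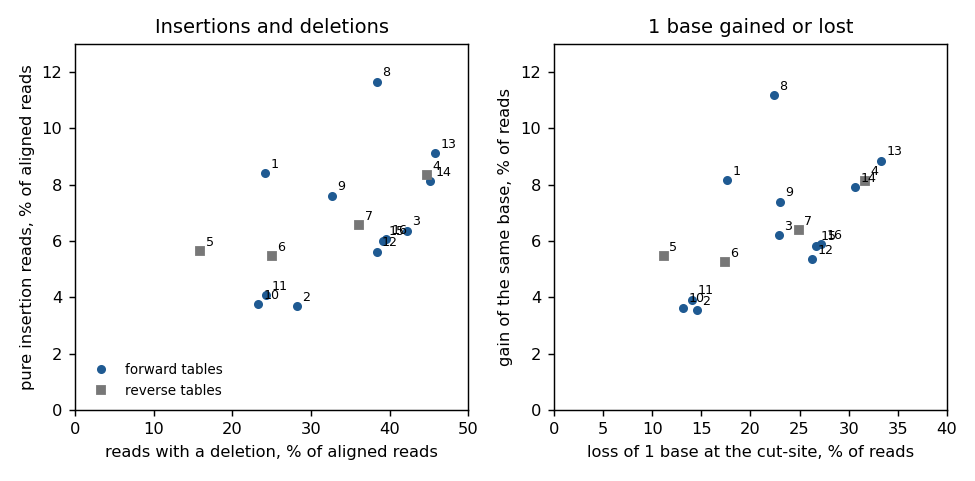
Each point is the positive control of 1 experiment, numbered, with reads as a percentage of aligned reads on all axes. The left panel sets pure insertions against reads with a deletion (r = 0.52) and the right panel the gain against the loss of the same base at the cut-site (r = 0.57), and experiments 1, 5 and 8 lie above the others in both for their share of deletions.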

How the data were processed

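Genomic DNA of nucleofected embryonic cells was amplified at *Mr-cofilin* and sequenced by the authors, who scored the reads by CRISPResso2 in a narrow (2 nt) and a wide (20 nt) window. The version is not given in the sources used here. The deposited tables, 2 for each of the 32 libraries, list each aligned sequence with its read count, its percent of reads and its numbers of deleted, inserted and mutated bases per the file headers. Percentages were recomputed from the deposited read counts. Tables of experiments 4 to 7 were reversed to match the others. Inserted bases were read from the reference gaps, and each insert was moved to the equivalent place nearest the cut-site. The deleted, inserted and mutated bases of window 20 were found to count only changes within 10 nt of the cut-site. An insert was called a repeat where it equals the bases directly left or right of its place. The placing was tested on simulated data.

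Groups came from the sample titles, and libraries were the replicates. Positive and negative controls were compared by a permutation test of mean shares (100000 resamples, seed 1), and classes within positive controls by an exact sign-flip test. Both were two-sided, with Benjamini-Hochberg adjustment and a threshold of 0.05. Wilson intervals were at 95%. Python 3.11.15, NumPy 2.4.6, SciPy 1.17.1 and pandas 2.3.3 were used. Controls with the same experiment number share a female per the methods. As a check, their deviations over 90 substitution types correlated by 0.149 on average (from -0.0925 to 0.322, over 0.1 in 10 of 16), against -0.00863 between different experiments. The highest correlation was with the control of the same number in only 4 of 16. Alternatives covered minimum reads, placing, substitutions, scale, orientation, the replicate block and each library left out. The named inserts were the 10 with the highest mean share, the 3 most frequent of each length class (among placed inserts) and those with at least 2 reads in a negative control. Members, classes and lists were chosen with earlier results of these data known. No genome sequence was used. A rearranged form of the insertion reads is not reported here.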

Additional observations from a re-analysis of the deposited data

How the results depend on the processing

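The insertion share stayed higher in the positive controls, with the same side of the threshold, in every alternative run. With the experiment number as a replicate block, pairing the controls of each female, the difference was 6.64 percentage points (exact sign-flip p = 3.05e-05) and all 11 insertion classes passed, as they did without the block. Leaving out each experiment in turn gave 6.30 to 6.83. Of the 11 classes, 6 passed when alleles under 5 reads were left out, and those that did not were A, C, T, 3 nt or more and repeats at another place (adjusted permutation p from 0.0687 to 0.227). In reverse orientation 9 passed, without C (adjusted exact permutation p = 0.0629) and repeats at another place (0.371). With inserts kept at their listed place 10 passed, without repeats at another place. The classes overlap in their reads, so such counts are not of independent results. Within the positive controls, 6 of the 10 pairs passed, 6 to 7 with an experiment left out and 0 in the 4 libraries of reverse orientation, where an exact sign-flip test cannot reach the threshold. The comparison of 2-nt with longer insertions turned in favour of 2 nt without substituted alleles (0.0209, adjusted p = 0.0246), in reverse orientation (0.0364, adjusted p = 0.417) and without experiment 8 (0.00584, adjusted p = 0.56), and ranged from -0.0295 to 0.00584 with each experiment left out. Repeats among 2-nt insertions passed without experiment 9 (adjusted p = 0.00203) or 15 (adjusted p = 0.0467), and A against C without experiment 11 (adjusted p = 0.00698), all by the exact sign-flip test. The difference in substitutions beside insertions turned to -0.623 percentage points without alleles of 1 read (exact p = 0.0109), -0.311 in reverse orientation, -0.918 for the G at the cut-site (within 10 nt), -0.889 for it over all 40 columns, -0.0779 for the 15 bases on its left (a count per 100 reads) and -0.00526 without experiment 8, and ranged from -0.00526 to 0.195 with each experiment left out. Leaving out alleles of 1 read can by itself take out more of the substituted insertion reads, and the cause of these turns was not tested. The correlation of insertion with deletion share ranged from 0.466 to 0.626 with each experiment left out (permutation p from 0.0114 to 0.0793, over the threshold without experiment 2, 4, 6, 10, 11, 13 or 14), that of the gain with the loss of G from 0.511 to 0.721 (p from 0.00314 to 0.0507, the last without experiment 10), that of the insertion part of indel reads from -0.406 to -0.0156, and the difference between orientations from 0.309 to 3.89. The exclusion of experiment 8, the alternatives on the G insertion and the merging of similar negative controls were chosen after seeing the data. Depth limits what can be said of products other than the G insertion. Among placed inserts, the next most frequent, GT, had at most 28 reads in a library, and T at the cut-site at most 20. The unplaced inserts of 45 nt in experiment 8 had 68 reads.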
